A study of Mus musculus with 6 samples.

Results

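The genes described here encode the mitochondrial respiratory chain and the ATP synthase. They were taken by symbol: protein-coding genes of GENCODE M21 whose names begin with Nduf, Uqcr, Cox4, Cox5, Cox6, Cox7, Cox8 or Atp5, the genes Sdha, Sdhb, Sdhc, Sdhd and Cyc1, and the mitochondrial genes that begin with mt-Nd, mt-Co, mt-Atp or mt-Cytb. The rule found 108 genes among the 21897 protein-coding genes of the table, which has 55401 gene IDs in all. Of these, 95 lie on nuclear chromosomes and 13 on the mitochondrial chromosome. The nuclear genes comprise 36 complex I subunits, 8 complex I assembly factors, 4 genes of complex II, 9 of complex III, 20 of complex IV and 18 of the ATP synthase, here called complex V. Ndufa4 and Ndufa4l2 were counted with complex IV, to which the NDUFA4 protein is now assigned.

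Complexes I and II pass electrons from NADH and succinate to ubiquinone, complex III passes them on to cytochrome c, and complex IV passes them to oxygen. The proton gradient built by complexes I, III and IV drives complex V, which makes ATP. Complexes I, III, IV and V are assembled from subunits made in the cytosol from nuclear genes and from subunits made inside the mitochondrion from its own genome, whereas complex II is encoded wholly in the nucleus. Haematopoietic stem cells are known for a strong reliance on glycolysis, and differentiating blood cells for a greater use of oxidative phosphorylation.

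RNA was measured in 6 bulk libraries of mouse bone marrow cells, each from 2000 sorted cells. The 3 LSK libraries came from Lin-Sca-1+c-Kit+ cells, the marrow fraction that holds haematopoietic stem and progenitor cells, of wild-type, untreated C57BL/6 mice aged 6 to 8 weeks. The other 3, called ESC-derived, came from Lin-Sca-1+c-Kit- cells, taken from the marrow of primary recipients that had received sorted CD144+ cells (CD144 is VE-cadherin, an endothelial surface protein). They are labelled wild type, with ESC differentiation as the treatment. The groups therefore differ both in origin and in the c-Kit gate, and the effects of these differences cannot be told apart. The labels used here give neither the strain and number of the recipients nor whether replicates came from separate animals, so p-values measure only the spread between these samples.

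Total counts ran from 41580006 to 49269286 per library. Kit, the gene of the gated receptor, had 2, 4 and 6 counts in the ESC-derived libraries and 2081, 2171 and 2550 in the LSK libraries. Cell type markers separated the groups. Summed over 10 T cell genes, the ESC-derived libraries held 12520 to 13470 CPM (counts relative to the scaled library size) and the LSK libraries 126 to 156, and all 10 genes were above the LSK range. Summed over 10 plasma and B cell genes, the LSK libraries held 16110 to 21040 CPM and the ESC-derived libraries 251 to 300. The 10 stem and progenitor genes summed to 2100 to 2212 CPM in LSK and 0.428 to 8.01 CPM in the ESC-derived libraries, where Hoxa9 was at 0. Neutrophil genes summed to 2266 to 4372 CPM against 1171 to 1329 CPM, with 7 of 10 above and 3 of 10 below the LSK range. Erythroid genes summed to 96.3 to 726 CPM against 283 to 324 CPM, with Alas2 at 0 in both groups. The part of these cell types in the respiratory gene values was not tested, and in bulk RNA fewer cells of a type and less RNA per cell cannot be told apart. LSK replicate 2 lay close to a weighted mean of the other LSK libraries. The median absolute log2 residual from the best such mix was 0.132 over 8345 genes, against 0.261 and 0.279 for the other LSK libraries and 0.403 to 0.452 for the ESC-derived ones. Counts of calls are given with and without it.

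The balance between the mitochondrial and the nuclear genes differed between the groups. Levels per length were taken as TPM, here counts per kilobase of exon scaled to the same total over all protein-coding genes in each library, and summed over the 13 mitochondrial and the 95 nuclear genes of each library. The ratio of the mitochondrial to the nuclear sum was 0.939, 0.753 and 0.668 in the ESC-derived libraries and 1.26, 1.63 and 1.73 in the LSK libraries. Every ESC-derived library was thus below every LSK library. The mean ratio was 0.787 ± 0.139 (SD, n = 3) in ESC-derived cells and 1.54 ± 0.249 (SD, n = 3) in LSK cells, a fold of 0.511. This ratio is formed within each library and does not depend on how libraries are scaled to each other. With plain counts in place of levels per length, the mean ratio was 0.437 against 0.806, again with no overlap.

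**Figure D1:**
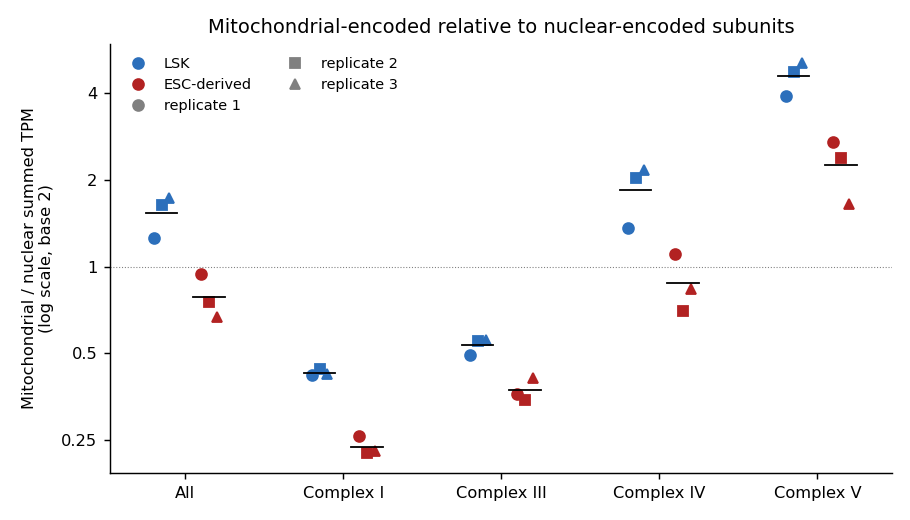
Ratio of the summed TPM of mitochondrial genes to that of nuclear genes, for all 108 genes and for complexes I, III, IV and V, on a log axis of base 2. Points are libraries and bars are group means. In each set the 3 ESC-derived points lie below the 3 LSK points, with means of 0.787 and 1.54 over all genes.

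The same order held within each complex that draws on both genomes. In complex I, with its 7 mitochondrial genes, the ratio was 0.237 ± 0.0181 in ESC-derived and 0.429 ± 0.0119 in LSK cells (SD, n = 3). In complex III, where mt-Cytb is the mitochondrial member, it was 0.372 ± 0.0343 against 0.533 ± 0.0357. In complex IV, with 3 mitochondrial genes, the ratio was 0.88 ± 0.206 against 1.85 ± 0.429, and in complex V, with mt-Atp6 and mt-Atp8, 2.24 ± 0.535 against 4.58 ± 0.594. The groups did not overlap in any of the 4 complexes. The ratio of complex III differed least, with a fold of 0.698, and that of complex IV most, with a fold of 0.477.

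Which of the 2 sums moved depends on the scaling. With TMM scaling, the edgeR method that sets the bulk of genes equal between libraries, the nuclear genes summed to 38340, 40270 and 33980 CPM in the ESC-derived libraries. In the LSK libraries they summed to 22870, 21900 and 22410 CPM, so that the mean in ESC-derived cells was 1.68-fold that in LSK cells, with no overlap. The mitochondrial genes summed to 19370, 17110 and 12930 CPM in ESC-derived cells and 15790, 18640 and 19640 CPM in LSK cells, which overlapped. On the TPM scale the nuclear fold was 1.18 and the mitochondrial fold 0.611, and neither overlapped, although the nuclear sums of complexes II and III taken alone did. As a share of all counts, the nuclear genes took 3.48, 3.55 and 3.27% in ESC-derived and 2.59, 2.41 and 2.31% in LSK libraries, and the mitochondrial genes took 1.76, 1.51 and 1.24% against 1.79, 2.05 and 2.03%.

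**Figure D2:**
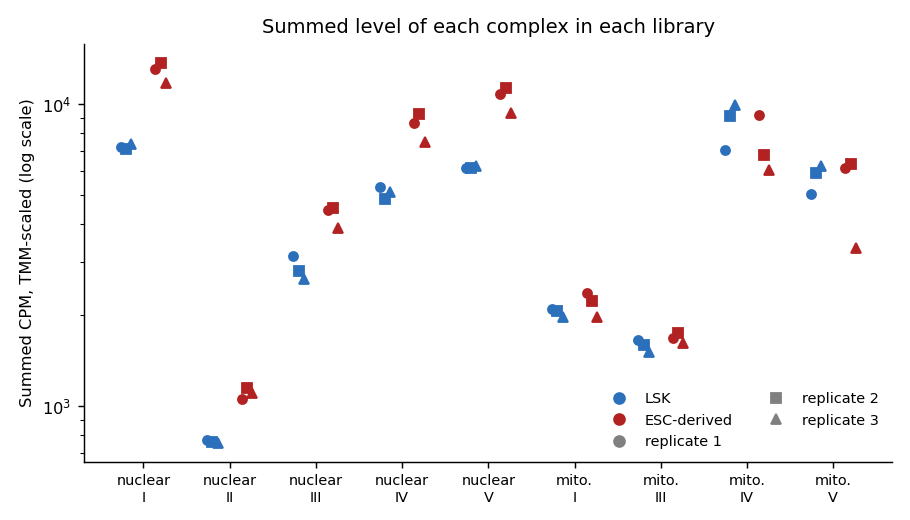
Summed level of the nuclear and mitochondrial genes of each complex, in TMM-scaled CPM on a log axis. Points are libraries by group. The nuclear sums of complexes I to V are higher in each ESC-derived library than in any LSK library, whereas the mitochondrial sums overlap.

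Gene by gene, 90 of the 95 nuclear genes and all 13 mitochondrial genes had enough counts to be tested. With edgeR's quasi-likelihood test and an adjusted p threshold of 0.05 over 16211 genes, 56 nuclear genes were higher in ESC-derived cells, 4 were lower and 30 were not called. That is 62.2% higher and 4.44% lower, against a background of 14.8% higher and 15.2% lower over all genes tested (30.0% in either direction). Respiratory genes are highly expressed, and among the 1782 genes with a mean of 100 CPM or more the background was 44.2% higher and 13.7% lower, with a median log2 fold change of 0.38. The median over the tested nuclear genes was 0.61, with quartiles of 0.29 and 0.95, and that over all genes tested was -0.07. The CPM ranges of the groups did not overlap for 63 of the 95 nuclear genes higher and 6 lower in ESC-derived cells. Over all genes tested this held for 22.6% and 27.2%. Among the 1782 genes with a mean of 100 CPM or more, it held for 932 and 329 genes. Without LSK replicate 2, 38 nuclear genes were called higher and 2 lower.

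No mitochondrial gene was called higher and 2 were called lower, mt-Nd4l and mt-Nd3, with a median log2 fold change of -0.06 over the 13. The share called lower, 15.4%, was near the 15.2% over all genes tested. Among the 1782 genes with a mean of 100 CPM or more, 44.2% were called higher and 13.7% lower. Their median of 0.38 lay above that of the 13. Without LSK replicate 2, 0 mitochondrial genes were called lower. Scaling moved all genes together. Scaled to protein-coding reads per kilobase, an alternative chosen after seeing the data, the median over all genes fell to -0.58 and the split of higher and lower calls went from 49.3% to 24.4% higher. Then 19 nuclear genes were called higher and 10 lower, and 8 mitochondrial genes were called lower. Of the 56 genes called higher, 19 kept the call and 49 kept a positive fold change on that scale. With library totals only, the median over all genes was -0.32, 36.5% of calls were higher, and 39 nuclear genes were called higher and 6 lower. Relative to the median of all genes, the nuclear median lay 0.66 to 0.75 above it and the mitochondrial median from -0.07 to 0.20 under all 20 alternatives. The gap between the nuclear and the mitochondrial median was 0.67, and 0.54 to 0.74 under the alternatives, the lowest of these without ESC-derived replicate 3. As a scaling moves all genes together, the alternatives that change only the scaling could hardly alter these differences. The median of genes with a mean of 100 CPM or more, 0.38 with TMM scaling, lies nearer to the nuclear median than that of all genes does.

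**Figure D3:**
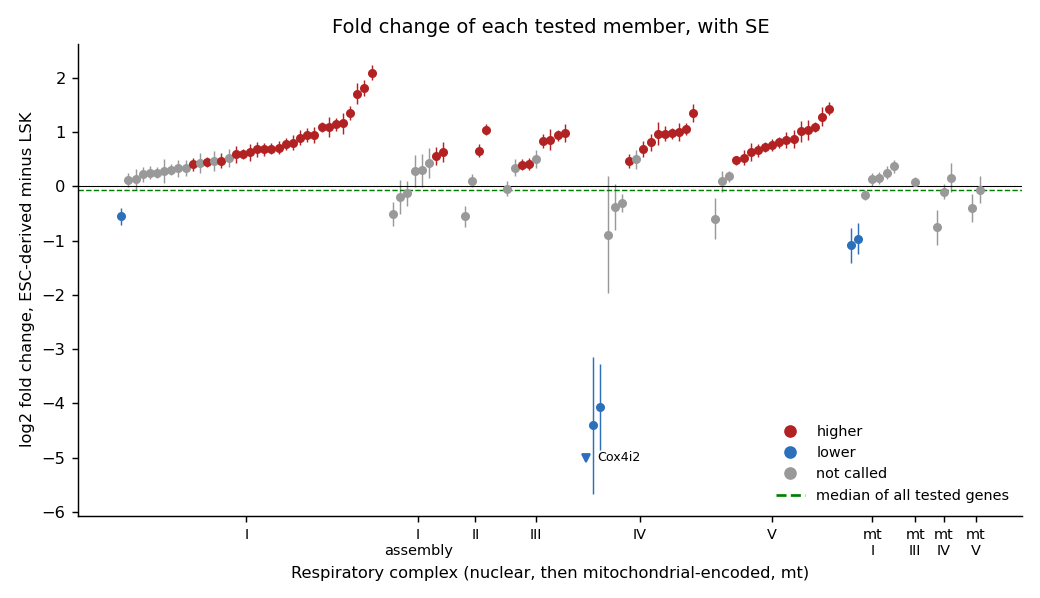
Log2 fold change, ESC-derived minus LSK, of each tested gene by complex and genome, with TMM scaling. Points are genes with their SE, in red where called higher, blue where called lower and grey where not called. Cox4i2, with 0 counts in all ESC-derived libraries, is drawn as a triangle at the lower edge of the plotted range, above its fitted value. Nuclear genes lie mostly above the median of all genes tested (-0.07) and the mitochondrial genes around it.

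Complex I takes electrons from NADH. Among its 36 nuclear subunits 23 were higher, 1 was lower and 12 were not called, with a median log2 fold change of 0.61. That is 63.9% higher and 2.78% lower, against 14.8% and 15.2% over all genes tested. Among genes with a mean of 100 CPM or more the shares were 44.2% and 13.7%. Ndufa13, an accessory subunit also known as GRIM-19, had 1072, 1193 and 908 CPM in ESC-derived and 263, 250 and 229 CPM in LSK libraries. Its lowest ESC-derived value was far above its highest LSK value, and the log2 fold change was 2.10 ± 0.13 (SE; edgeR adjusted p = 9.91e-05). Ndufb7, an accessory subunit of the membrane arm, had 1630, 1945 and 1393 CPM against 458, 451 and 505 CPM, again far apart (log2 fold change 1.81 ± 0.14 SE, adjusted p = 0.000247). Ndufs5, another accessory subunit, had 226, 244 and 229 CPM against 111, 110 and 106 CPM (1.09 ± 0.10 SE, adjusted p = 0.000397), with a narrow spread in both groups. The X-linked accessory subunits Ndufa1 and Ndufb11, named after their values were seen, had log2 fold changes of 1.71 ± 0.19 and 1.35 ± 0.13 (SE), with adjusted p values of 0.00102 and 0.000535. In an unstranded library reads of overlapping genes cannot be told apart. Tssk6 shares 30.0% of the exon bases of Ndufa13 on the other strand, but held 540 counts in all against 173222.

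The subunits of complex I were also grouped by role. The 7 nuclear catalytic subunits, which carry the flavin and the iron-sulphur clusters, had a median log2 fold change of 0.25. Of these, Ndufv2 was called higher (0.68 ± 0.14 SE, adjusted p = 0.0125) and 6 were not called. The 29 accessory subunits, which surround this core, had a median of 0.70, and 22 were called higher, 1 lower and 6 not called. The difference between these groups of genes was not tested, and they were formed after their values were seen. Ndufs8, an iron-sulphur subunit, was not called, with 516, 347 and 273 CPM against 323, 305 and 303 CPM and overlapping groups (0.29 ± 0.22 SE, adjusted p = 0.398). Ndufa8, an accessory subunit of the membrane arm, just missed the threshold, with 234, 262 and 250 CPM against 205, 195 and 202 CPM and no overlap (0.31 ± 0.10 SE, adjusted p = 0.0508).

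Ndufs6, a zinc-binding accessory subunit, was the complex I subunit that was lower in ESC-derived cells. It had 131, 145 and 104 CPM against 166, 192 and 200 CPM (log2 fold change -0.55 ± 0.16 SE, adjusted p = 0.0363). The groups did not overlap, but the call was lost without any one of ESC-derived replicates 1 and 3 and the 3 LSK replicates, with adjusted p values up to 0.114. The 8 assembly factors, which help to build the complex but are not part of it, had a median of 0.29, with 2 called higher and 6 not called. Ndufaf3 had 53.5, 49.1 and 63.0 CPM against 29.8, 35.7 and 41.1 CPM (0.63 ± 0.19 SE, adjusted p = 0.0451), and Ndufaf8 85.9, 122 and 120 CPM against 70.8, 72.5 and 78.9 CPM (0.56 ± 0.17 SE, adjusted p = 0.046). Both calls lie near the threshold and were lost under most alternatives, 13 and 12 of 20, among them the removal of LSK replicate 2. Ndufaf1 and Ndufaf6 were not called, with log2 fold changes of 0.43 ± 0.28 and -0.19 ± 0.32 (SE).

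Complex II, the succinate dehydrogenase, also belongs to the tricarboxylic acid cycle. Of its 4 subunits, 2 were higher in ESC-derived cells and 2 were not called. Sdhb, the iron-sulphur subunit, had 519, 621 and 548 CPM in ESC-derived and 264, 271 and 286 CPM in LSK libraries, with no overlap (log2 fold change 1.04 ± 0.10 SE, adjusted p = 0.000661). Sdhd, a membrane anchor, had 232, 239 and 203 CPM against 157, 138 and 131 CPM (0.66 ± 0.12 SE, adjusted p = 0.0079), and its call was lost without LSK replicate 2 (adjusted p = 0.0538). Sdhc, the other membrane anchor, overlapped between the groups at 192, 220 and 249 CPM against 214, 196 and 203 CPM (0.11 ± 0.12 SE). Sdha, the flavoprotein that binds succinate, had 111, 70.0 and 108 CPM against 136, 153 and 136 CPM. All 3 ESC-derived values were below the LSK values, yet the difference missed the threshold (-0.55 ± 0.19 SE, adjusted p = 0.0757), and passed it for Sdha with DESeq2 (adjusted p = 0.0241), with limma-voom (0.0478), with library totals only (0.0331) and on the protein-coding scale (0.0152).

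Complex III, the cytochrome bc1 complex, had 6 of its 9 nuclear genes higher, none lower and 3 not called, with a median log2 fold change of 0.50. That is 66.7% higher, against 44.2% of genes with a mean of 100 CPM or more. Uqcrc2, a core protein, had 291, 275 and 290 CPM against 140, 155 and 152 CPM (0.94 ± 0.10 SE, adjusted p = 0.000749). Uqcrh, the hinge protein, had 572, 579 and 444 CPM against 297, 296 and 304 CPM (0.83 ± 0.13 SE, adjusted p = 0.00369). Uqcrq, a small subunit, had 463, 473 and 324 CPM against 223, 205 and 210 CPM (0.98 ± 0.16 SE, adjusted p = 0.00499). In all 3 the ESC-derived libraries stood above the LSK libraries. The electron-carrying nuclear subunits gave no call in the edgeR test with TMM scaling. Cyc1, cytochrome c1, had 318, 298 and 304 CPM against 271, 201 and 177 CPM, with no overlap (0.50 ± 0.17 SE, adjusted p = 0.0632). It was called higher with limma-voom (adjusted p = 0.0366), without LSK replicate 1 (0.0138) and after division of the values by 4 (0.0493), but Cyc1 lay at -0.016 on the protein-coding scale. Uqcrfs1, the Rieske iron-sulphur protein, had 233, 180 and 196 CPM against 231, 212 and 184 CPM, which overlapped (-0.04 ± 0.14 SE, adjusted p = 0.862), and was called lower on the protein-coding scale (-0.56, adjusted p = 0.049). Uqcr11, a small subunit, overlapped as well (0.35 ± 0.16 SE, adjusted p = 0.153).

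Complex IV, the cytochrome c oxidase, showed the widest range of fold changes among its nuclear genes, with 9 higher, 3 lower and 4 not called of 16 tested. These shares, 56.25% higher and 18.75% lower, were not far from the 44.2% and 13.7% of genes with a mean of 100 CPM or more. The complex IV genes that were higher encode the ubiquitous forms of the subunits. Cox6a1 had 1659, 1759 and 1168 CPM in ESC-derived and 656, 580 and 556 CPM in LSK libraries (log2 fold change 1.36 ± 0.17 SE, adjusted p = 0.00174). Cox7a2 had 555, 533 and 451 CPM against 245, 247 and 246 CPM (1.06 ± 0.11 SE, adjusted p = 0.000724). Cox5a, a subunit without a tissue form, had 1010, 1188 and 984 CPM against 517, 540 and 561 CPM (0.98 ± 0.11 SE, adjusted p = 0.000921). None of these 3 overlapped between the groups. Cox6b1 had 857, 964 and 647 CPM against 491, 452 and 465 CPM (0.81 ± 0.16 SE, adjusted p = 0.00892). Cox4i1, the general form of the largest nuclear subunit, was called by a small margin at 1180, 1374 and 1596 CPM against 991, 951 and 1054 CPM (0.47 ± 0.13 SE, adjusted p = 0.0321). Its call was lost without ESC-derived replicate 2 or 3 or any one LSK replicate (adjusted p up to 0.152), and on the protein-coding scale its log2 fold change was -0.03.

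The 3 genes that were lower in ESC-derived cells are tissue forms of subunits whose general forms were higher. Cox4i2, the form known from lung and from low oxygen, had 0 counts in all 3 ESC-derived libraries and 478, 266 and 108 counts in the LSK libraries. Set against a floor of 12 counts over the group, its level was lower by at least 66.8-fold (edgeR adjusted p = 0.00529). Cox6b2, the testis form, had 0.50, 4.91 and 5.05 CPM against 58.2, 48.6 and 68.3 CPM (log2 fold change -4.06 ± 0.79 SE, adjusted p = 0.00953). Cox6a2, the heart and skeletal muscle form, had 0, 117 and 62 counts against 1400, 1268 and 1371 counts (-4.41 ± 1.27 SE, adjusted p = 0.039), where 1 library at 0 stands beside 2 that are not. The Cox6a2 call was lost without ESC-derived replicate 2 or 3 or any one LSK replicate (adjusted p up to 0.103), although the groups did not overlap. The plasma and B cell genes and the stem cell genes were also high in the LSK libraries, and their part in these values was not tested.

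The remaining forms were not called or too low to test. Cox7a1, the other heart and muscle form, had 7.21, 2.60 and 0.17 CPM against 5.71, 5.43 and 7.32 CPM and overlapped (-0.89 ± 1.08 SE, adjusted p = 0.596). Cox7a2l, a relative of Cox7a2 that takes part in joining complexes into supercomplexes, had 200, 76.6 and 109 CPM against 104, 156 and 240 CPM (-0.38 ± 0.42 SE, adjusted p = 0.564), with a wide spread in both groups. Cox8a overlapped at 733, 691 and 476 CPM against 491, 425 and 425 CPM (0.50 ± 0.18 SE, adjusted p = 0.0747). Ndufa4 overlapped at 319, 357 and 404 CPM against 545, 392 and 404 CPM (-0.31 ± 0.16 SE, adjusted p = 0.205). Among the untested genes, Cox8b had 4 counts in each of LSK replicates 1 and 3, Cox8c 4 counts in ESC-derived cells, and Ndufa4l2, a gene known to respond to low oxygen, 60 counts in LSK. Cox7b2 had 53 counts in ESC-derived cells, 49 of them in replicate 2. A second gene ID with the symbol Atp5o had no count in any library.

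As shares of their own families, in TPM, the tissue forms Cox6a2, Cox6b2, Cox4i2 and Cox7a1 were a minor part in both groups. Cox7a2l, a relative and not a tissue form, held a larger share. Cox6a2 made up 4.77% ± 0.454 (SD, n = 3) of the Cox6a level in LSK cells and 0.0925% ± 0.0834 in ESC-derived cells. Cox6b2 made up 7.35% ± 1.1 of the Cox6b level in LSK and 0.286% ± 0.232 in ESC-derived cells, and Cox4i2 made up 1.18% ± 0.742 of the Cox4i level in LSK. Cox7a2l made up 20.7, 28.0 and 37.2% of the Cox7a level in LSK replicates 1 to 3, against 18.4, 8.34 and 13.3% in ESC-derived replicates 1 to 3, and Cox7a1 2.98% ± 0.252 against 0.889% ± 0.89. None of these 5 shares overlapped between the groups. A share within a family does not depend on the scaling between libraries.

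**Figure D4:**
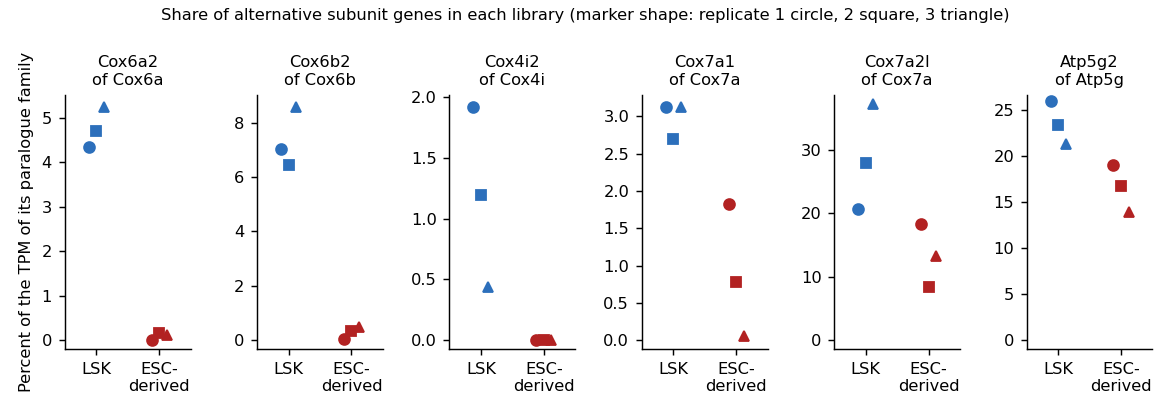
Share of each family's summed TPM, in percent, held by single members of families of related genes, with 1 point per library. The Cox6a2, Cox6b2, Cox4i2, Cox7a1, Cox7a2l and Atp5g2 shares of the 3 LSK libraries lie above those of the 3 ESC-derived libraries.

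Promoters of respiratory genes are known for sites of the factors NRF1, GABPA (also called NRF2) and YY1. RefSeq windows of build GRCm38.p6, from 250 bases before to 50 bases after a start, matched 74 of the 95 nuclear genes, in 79 windows. The letters GCGCATGCG of NRF1, searched on both strands as were the others, were in 12.7% of these windows and in 1.75% of all 32851 windows. Those of GABPA, CCGGAAG, were in 22.8% against 8.86%, and those of YY1, AAGATGGC, in 12.7% against 2.75%. CCGGAAG ends in the letters AAG with which AAGATGGC begins, so matches of these motifs can overlap. Of the 47 matched genes called higher, 5 held the NRF1 letters, 13 those of GABPA and 6 those of YY1, and of the 23 matched genes not called 5, 5 and 3 did. The 2 matched genes called lower were Cox6b2, with none of the letters, and Ndufs6, with those of YY1 from base 34 after the start. A match is a description of letters and not evidence of binding. Shown are the stretches before the RefSeq start of 2 forms of the Cox6b subunit that moved in opposite directions, of Cox6a1 and of Atp5h. These stretches are on the gene's strand, with matched letters in capitals. They are picked examples and do not stand for the genes called higher or lower, most of which hold none of the GABPA letters.
Cox6a1, chr5:115348959-115349208, minus strand: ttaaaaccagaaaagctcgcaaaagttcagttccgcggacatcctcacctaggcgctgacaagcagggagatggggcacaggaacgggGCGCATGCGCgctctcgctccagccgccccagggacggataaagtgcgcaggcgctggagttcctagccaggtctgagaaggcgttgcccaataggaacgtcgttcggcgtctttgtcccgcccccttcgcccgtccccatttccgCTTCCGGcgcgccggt
Cox6b1, chr7:30626122-30626364, minus strand: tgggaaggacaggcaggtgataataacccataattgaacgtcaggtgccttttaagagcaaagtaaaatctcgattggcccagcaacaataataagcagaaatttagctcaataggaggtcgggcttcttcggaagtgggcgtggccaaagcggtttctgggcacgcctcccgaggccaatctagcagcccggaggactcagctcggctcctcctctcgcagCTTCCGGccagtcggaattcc
Cox6b2, chr7:4753095-4753344, minus strand: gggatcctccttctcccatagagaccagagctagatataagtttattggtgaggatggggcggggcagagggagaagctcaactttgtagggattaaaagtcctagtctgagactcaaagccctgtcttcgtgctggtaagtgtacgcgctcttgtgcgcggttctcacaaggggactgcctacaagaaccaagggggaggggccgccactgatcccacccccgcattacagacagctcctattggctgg
Atp5h, chr11:115419933-115420169, minus strand: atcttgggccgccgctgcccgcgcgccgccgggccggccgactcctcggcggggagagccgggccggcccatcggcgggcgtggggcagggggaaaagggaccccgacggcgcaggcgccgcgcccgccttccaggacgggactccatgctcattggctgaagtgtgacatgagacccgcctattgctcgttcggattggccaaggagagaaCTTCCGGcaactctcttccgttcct
The Cox6a1 stretch holds the NRF1 letters on both strands, as 2 overlapping matches, and the GABPA letters read on the other strand, the Cox6b1 and Atp5h stretches hold the GABPA letters on the other strand, and in the Cox6b2 stretch none of the 3 was found. These stretches end 1 to 14 bases before the RefSeq start and leave out the 50 bases after it. The GENCODE genes of Cox6a1, Cox6b1 and Atp5h begin further upstream, and the matched GABPA letters lie inside those genes.

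Complex V, the ATP synthase, had the largest share of genes called higher, 14 of 17 tested, with none lower, 3 not called and a median log2 fold change of 0.76. That is 82.4% higher, against 44.2% of genes with a mean of 100 CPM or more. Atp5h, subunit d of the peripheral stalk, had 719, 797 and 710 CPM in ESC-derived and 242, 277 and 308 CPM in LSK libraries (1.43 ± 0.12 SE, adjusted p = 0.000339). Atp5j, coupling factor 6 of the same stalk, had 1018, 990 and 905 CPM against 479, 437 and 444 CPM (1.10 ± 0.10 SE, adjusted p = 0.000344). Atp5c1, the gamma subunit of the turning central stalk, had 641, 609 and 580 CPM against 367, 368 and 374 CPM (0.72 ± 0.09 SE, adjusted p = 0.00148). The groups were well apart in all 3. Atp5a1, the alpha subunit of the catalytic head, overlapped at 823, 848 and 715 CPM against 699, 679 and 724 CPM (0.18 ± 0.10 SE, adjusted p = 0.228), and on the protein-coding scale its log2 fold change was -0.33 (adjusted p = 0.0195). Atp5b, the beta subunit of the same head, named after its values were seen, was called higher (0.67 ± 0.12 SE, adjusted p = 0.00647).

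Subunit c, which forms the membrane ring, is made from 3 genes that encode the same mature protein. Atp5g3 was called higher at 516, 512 and 487 CPM against 265, 287 and 312 CPM (0.81 ± 0.10 SE, adjusted p = 0.00154), and Atp5g1 had a log2 fold change of 0.53 ± 0.14 (SE, adjusted p = 0.0309). Both were named after their values were seen. Atp5g2 overlapped at 135, 121 and 84.9 CPM against 119, 104 and 96.5 CPM (0.10 ± 0.20 SE, adjusted p = 0.76). Its share of the family's TPM was 16.6% ± 2.57 (SD, n = 3) in ESC-derived and 23.6% ± 2.34 in LSK cells, with no overlap.

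The calls can be set beside those of other settings, complex by complex. On the protein-coding scale the nuclear genes called higher were 8 in complex I, 1 in complex II, 2 in complex III, 3 in complex IV and 5 in complex V. All 19 were among the 56, and included Ndufa13, Ndufb7, Ndufs5, Sdhb, Uqcrc2, Uqcrq, Cox6a1, Cox7a2, Cox5a, Atp5h and Atp5j. Without LSK replicate 2 the numbers were 17, 1, 3, 6 and 11, and no assembly factor.

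The mitochondrial genes are transcribed together from the mitochondrial chromosome as long precursors that are then cut. The 7 complex I genes encode subunits of the membrane arm, the part of the complex that pumps protons. Of these, mt-Nd1 had 834, 769 and 669 CPM in ESC-derived and 638, 598 and 526 CPM in LSK libraries, above in each library but not called (log2 fold change 0.37 ± 0.12 SE, adjusted p = 0.0662). It was called with DESeq2 (adjusted p = 0.0487), with limma-voom (0.0446) and without ESC-derived replicate 3 (0.0387), whereas on the protein-coding scale the sign of mt-Nd1 turned (-0.155, adjusted p = 0.412). The small subunit mt-Nd4l had 92.1, 59.1 and 42.5 CPM against 97.8, 148 and 165 CPM (-1.08 ± 0.32 SE, adjusted p = 0.0445). Another small subunit, mt-Nd3, had 50.1, 30.4 and 23.8 CPM against 64.9, 62.8 and 76.1 CPM (-0.97 ± 0.29 SE, adjusted p = 0.0448). Both were lower in every ESC-derived library, and both calls were lost without ESC-derived replicate 2 or 3 or LSK replicate 2 or 3, with adjusted p values up to 0.127 in these fits. The mt-Nd3 call was also lost without LSK replicate 1 (adjusted p = 0.0911).

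The other complex I genes of this genome were not called. On the log2 scale mt-Nd6, which is encoded on the opposite strand from the rest, differed by 0.25 ± 0.12 (SE, adjusted p = 0.177), mt-Nd4 by 0.15 ± 0.11, mt-Nd2 by 0.13 ± 0.12 and mt-Nd5 by -0.16 ± 0.09. In an unstranded library, reads of mt-Nd6 cannot be told from reads of the other strand. Cytochrome b, mt-Cytb, had 1675, 1747 and 1615 CPM against 1652, 1590 and 1506 CPM and was not called (0.09 ± 0.09 SE, adjusted p = 0.521). On the protein-coding scale mt-Nd4 and mt-Cytb changed sign and were called lower, at -0.37 and -0.43, and mt-Nd6 and mt-Nd2 changed sign without a call, at -0.27 and -0.39. With library totals only these 4 genes were also below 0 and not called.

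The catalytic subunits of complex IV gave no call with TMM scaling, but mt-Co1 and mt-Co3 were called lower with library totals only (adjusted p = 0.0416 and 0.0462) and on the protein-coding scale (0.00312 and 0.0166). The level of mt-Co1, which binds the oxygen, was 4751, 4387 and 3621 CPM against 4051, 4642 and 4939 CPM (-0.10 ± 0.13 SE, adjusted p = 0.645). The level of mt-Co2, which receives electrons from cytochrome c, was 1909, 935 and 1156 CPM against 963, 1296 and 1317 CPM (0.16 ± 0.27 SE, adjusted p = 0.71). For mt-Co3 it was 2528, 1471 and 1246 CPM against 2005, 3147 and 3669 CPM, with ESC-derived replicate 1 inside the LSK range (-0.75 ± 0.32 SE, adjusted p = 0.131), and without that library the difference was called (-1.11, adjusted p = 0.0363). In complex V, mt-Atp6, a subunit of the proton channel, had 5047, 5534 and 2750 CPM against 4162, 4782 and 4962 CPM (-0.06 ± 0.25 SE, adjusted p = 0.886), where ESC-derived replicate 3 lies far below replicates 1 and 2. Beside it mt-Atp8, a small membrane subunit, had 1091, 806 and 571 CPM against 853, 1114 and 1274 CPM (-0.39 ± 0.26 SE, adjusted p = 0.307).

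**Figure D5:**
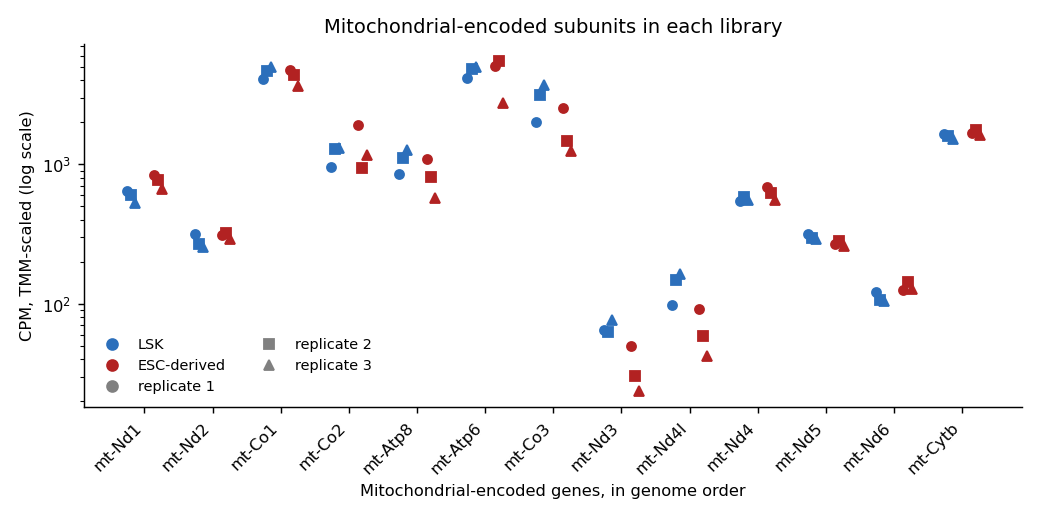
Level of the 13 mitochondrial genes in TMM-scaled CPM on a log axis, with 1 point per library. With this scaling the groups do not overlap for mt-Nd1 and mt-Nd6, which lie higher in ESC-derived libraries but change sign on the protein-coding scale, and for mt-Nd3, mt-Nd4l and mt-Nd5, which lie lower. Over all genes tested, ranges did not overlap for 22.6% above and 27.2% below, so such genes are common.

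These genes lie close together, and 2 pairs of reading frames share bases, so reads in the shared stretch cannot be assigned to 1 gene. The stretch shared by mt-Atp8 and mt-Atp6 is shown because it is 21.1% of the length of mt-Atp8; capitals mark the start codon of mt-Atp6.
mt-Atp8 and mt-Atp6, chrM:7927-7969, plus strand: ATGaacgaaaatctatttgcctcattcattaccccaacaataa
The pair mt-Nd4l and mt-Nd4 shares 7 bases, from 10167 to 10173, or 2.36% of mt-Nd4l. Within the mitochondrial counts of a library, which are free of scaling between libraries, mt-Nd4l made up 0.383% ± 0.0801 (SD, n = 3) in ESC-derived and 0.75% ± 0.115 in LSK cells. The share of mt-Nd3 was 0.207% ± 0.045 against 0.379% ± 0.038, that of mt-Nd1 4.66% ± 0.456 against 3.31% ± 0.687, and that of mt-Nd4 3.83% ± 0.408 against 3.14% ± 0.307. These 4 shares did not overlap between the groups, and those of the other 9 genes did.

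The genes kept nearly the same order of level in both groups. Over the 95 nuclear genes, Spearman's rho between the mean TPM of the groups was 0.943, and over the 13 mitochondrial genes it was 0.956, as a description across genes. The highest mean TPM was that of mt-Atp6, at 13030 in ESC-derived and 19660 in LSK cells, and Cox6a1 was the highest nuclear gene in both, at 4380 and 2472. The median coefficient of variation of CPM over 3 libraries was 13.8% for the tested nuclear genes in ESC-derived cells and 8.63% in LSK cells, and 13.6% and 9.94% for the mitochondrial genes.

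Genes of the surrounding pathways were taken from 5 lists. Over all genes tested, 14.8% were called higher and 15.2% lower, and 44.2% and 13.7% of those with a mean of 100 CPM or more. Shares near these do not set a list apart. Both mitochondrial ribosomal RNAs, which serve the translation of the 13 subunits, had lower counts in the ESC-derived libraries. How fully the cDNA kit captures these RNAs was not tested, so the counts may not stand for their levels. The counts of mt-Rnr1 and mt-Rnr2 gave log2 fold changes of -0.64 ± 0.11 and -0.64 ± 0.16 (SE), with adjusted p values of 0.00583 and 0.025. Of 26 genes for transcription and replication of the mitochondrial genome, 1 was higher, 2 were lower and 23 were not called, with a median of -0.05. These are shares of 3.85% higher and 7.69% lower. Mterf3, a regulator of mitochondrial transcription, was higher (1.19 ± 0.22 SE, adjusted p = 0.00729), and Twnk, the mitochondrial helicase (-1.64 ± 0.36 SE, adjusted p = 0.015), and Tfb2m, a transcription factor of the organelle (-0.92 ± 0.28 SE, adjusted p = 0.0481), were lower. The Tfam gene, for the main packaging and transcription factor of the organelle, was named after its values were seen and was not called (-0.12 ± 0.27 SE, adjusted p = 0.786).

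Of 41 assembly factors and carriers outside the symbol rule, 9 were higher, 2 lower and 30 not called, with a median of 0.16. That is 22.0% higher and 4.88% lower, against 14.8% and 15.2% over all genes tested. Uqcc2, a complex III assembly factor, had 220 ± 17.8 CPM against 107 ± 5.41 CPM (SD, n = 3; log2 fold change 1.04 ± 0.11 SE, adjusted p = 0.000893). Cycs, cytochrome c itself, had 869 ± 58.4 CPM against 482 ± 17.0 CPM (0.85 ± 0.09 SE, adjusted p = 0.000971). The complex III assembly factors Ttc19 and Bcs1l were lower (-0.98 ± 0.24 and -1.19 ± 0.34 SE, adjusted p = 0.0211 and 0.041). Of 21 genes of the tricarboxylic acid cycle and pyruvate entry, 6 were higher, 2 lower and 13 not called, with a median of 0.46. Here the shares were 28.6% higher and 9.52% lower. Mdh2, malate dehydrogenase, and Cs, citrate synthase, were higher (0.93 ± 0.11 and 1.24 ± 0.16 SE, adjusted p = 0.00143 and 0.0017). Idh2, the NADP-linked isocitrate dehydrogenase, had 18.5 ± 5.55 CPM against 358 ± 25.2 CPM (SD, n = 3) and was the most strongly lower of the list (-4.27 ± 0.24 SE, adjusted p = 5.87e-05). Idh3g, a subunit of the NAD-linked enzyme, was lower as well (-0.67 ± 0.12 SE, adjusted p = 0.00637).

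Of 14 regulators of respiratory genes 12 were tested, with 2 higher, 1 lower and a median of -0.24. The share called higher, 16.7%, was near the 14.8% over all genes tested, and 8.33% were lower against 15.2%. Gabpa was higher at 25.6 ± 5.79 CPM against 4.59 ± 2.4 CPM (SD, n = 3; 2.48 ± 0.50 SE, adjusted p = 0.0112). Its exons overlap 397 bases of Atp5j on the other strand, and it held 4031 counts in all against 191123 of Atp5j, which was also higher. Reads in those bases, 6.98% of the Gabpa exons, cannot be assigned to 1 of the 2 genes. Hif1a, the hypoxia factor, was higher (0.68 ± 0.20 SE, adjusted p = 0.0433) and Myc was lower (-0.58 ± 0.18 SE, adjusted p = 0.0463). Ppargc1a, the coactivator of mitochondrial biogenesis, was at 0 in ESC-derived cells and at 0.109 CPM in LSK cells, too low to test. Calls of these lists near the threshold changed with the setting, and their numbers are given with the alternatives.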

How the data were processed

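Bulk RNA of 3 LSK and 3 ESC-derived libraries was analysed. Per the labels' protocols, cDNA came from the SMART-Seq v4 kit and libraries from the Nextera XT kit, sequenced on an Illumina HiSeq instrument. HISAT, StringTie and build mm10 are named in the submitters' processing notes, with versions and settings not given in these sources. The authors deposited unnormalized estimated counts for each Ensembl gene, as whole numbers. In each library 40.1 to 47.2% of values from 1 to 20 were divisible by 4, so 1 fragment was often worth about 4 counts, and the floor for a group at 0 was set at 12 counts over its 3 libraries. Total counts were 41580006 to 49269286. Reads carry no molecular identifiers, and floors cover counting error only. The header names the 6 value columns in 1 field. Columns were assigned by the names in that field in their written order, which the Kit counts go with. Symbols, biotypes and exon lengths came from GENCODE M21 (55141 of 55401 IDs matched), and promoter windows from RefSeq (GRCm38.p6).

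The counts were filtered with filterByExpr, which left 16211 genes, scaled with TMM and tested two-sided with the edgeR 4.0.16 quasi-likelihood test in R 4.3.3 (Benjamini-Hochberg over all genes tested). SEs of log2 fold changes are the fold change over the square root of F. Alternatives were DESeq2 1.42.0, limma-voom (limma 3.58.1), other scalings, other filters, a test against a 2-fold change, values divided by 4, thinned counts, a replicate block, and each library left out. The members and lists were chosen with earlier results of these data known. Named genes were all mitochondrial genes, complex II, Cyc1, tissue forms, up to 3 higher and 3 lower members per complex by adjusted p, the 2 uncalled members with the highest level per complex, and up to 2 higher and 2 lower genes per list. Genes outside this rule are marked where they appear. Values of some single genes are not reported here.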

Additional observations from a re-analysis of the deposited data

How the results depend on the processing

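Depth differed little between libraries, and low values rest on few fragments. Of 1000 alternative values for the 50 tested members chosen by the naming rule, 866 kept their direction and their side of the threshold, 78 lost the call, 26 gained one and 30 changed sign. For these and the results below the cause was not tested. Of the sign changes, 16 came with scaling to protein-coding reads per kilobase, an alternative chosen after seeing the data. Among them mt-Nd4 (-0.366), mt-Cytb (-0.429) and Atp5a1 (-0.333) were called lower and Cox4i1 (-0.028) lost its call. The others were uncalled on both scales: mt-Nd1 -0.155, mt-Nd2 -0.391, mt-Nd6 -0.267, mt-Co2 -0.343, Ndufa8 -0.201, Ndufs8 -0.238, Ndufaf1 -0.073, Sdhc -0.395, Cyc1 -0.016, Uqcr11 -0.183, Cox8a -0.027 and Atp5g2 -0.434. With library totals only, 8 uncalled members changed sign: mt-Nd2 -0.127, mt-Nd4 -0.101, mt-Nd6 -0.003, mt-Cytb -0.166, mt-Co2 -0.079, Sdhc -0.138, Atp5a1 -0.067 and Atp5g2 -0.164. Without 1 library, mt-Co1 (0.009) and mt-Atp6 (0.192) did so without ESC-derived replicate 3, mt-Co2 (-0.188) and Atp5g2 (-0.045) without replicate 1 of that group, and Uqcrfs1 without its replicate 2 (0.039) or LSK replicate 1 (0.033), none of them called. With 1 library left out these ranged from -0.181 to 0.009 for mt-Co1, -0.248 to 0.192 for mt-Atp6, -0.188 to 0.364 for mt-Co2, -0.045 to 0.27 for Atp5g2 and -0.153 to 0.039 for Uqcrfs1. On the protein-coding scale 37 members were called, 19 nuclear higher and 10 lower, and 8 mitochondrial lower, with medians of 0.094 and -0.593. It called 5 assembly genes higher and 6 lower, 0 genome maintenance genes higher and 6 lower, 1 regulator higher and 5 lower, and 1 tricarboxylic acid cycle gene higher and 4 lower. With library totals only, the nuclear median was 0.36, 5 mitochondrial members were called lower, 4 genome maintenance genes were lower, 1 regulator was higher and 2 lower, and 3 cycle genes were higher and 4 lower. The test against a 2-fold change called 7 members, 5 nuclear higher and 2 lower and 0 mitochondrial, 0 ribosomal RNAs lower, 2 assembly genes higher and 0 lower, 0 genome maintenance genes in either direction, 1 regulator higher and 0 lower, and 0 cycle genes higher and 1 lower. DESeq2 and limma-voom each called 1 mitochondrial member higher; they called 3 and 2 genome maintenance genes higher and 5 and 4 lower, and 3 and 2 regulators lower. Without the low-count filter 1 genome maintenance gene was lower, and 1 regulator was higher and 0 lower. Division by 4 called 2 genome maintenance genes higher and 2 regulators lower, and thinning called 1 genome maintenance gene lower.

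The labels do not say whether replicate numbers pair the samples. Deviations of same-numbered libraries correlated at 0.00426, 0.0537 and 0.00625 for LSK replicates 1, 2 and 3. The best correlation with another number was 0.0222, -0.0047 and -0.00127, so replicate 1 went with another number and replicates 2 and 3 with their own. All these values are small, and with 3 libraries per group they cannot decide whether samples were paired. With the replicate block, 44 nuclear members were called higher and 2 lower, 0 mitochondrial members lower, 1 ribosomal RNA lower, 1 assembly gene lower, 0 genome maintenance genes lower, and 1 regulator higher and 0 lower. It called 46 members in all, against 62 without it.

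With 1 library left out at a time, 40 to 59 members were called: 38 to 56 nuclear higher and 2 to 3 lower, and 0 to 1 mitochondrial higher and 0 to 3 lower. The fewest nuclear calls, 38 higher, came without LSK replicate 2. Ribosomal RNAs lower numbered 1 to 2, assembly genes 7 to 10 higher and 0 to 3 lower, genome maintenance genes 1 to 2 higher and 0 to 3 lower, regulators 1 to 2 higher and 0 to 1 lower, and cycle genes 3 to 5 higher and 2 to 3 lower. The nuclear median stayed between 0.57 and 0.65 and the mitochondrial median between -0.16 and 0.11. The log2 difference in the mitochondrial to nuclear ratio was -0.97, and -1.11 to -0.86 with 1 library left out, -0.89 with plain counts and -1.02 without mt-Atp6. The share of counts in mitochondrial genes was 0.452 percentage points lower in ESC-derived cells, with a range of -0.579 to -0.321.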

Other observations

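Among the 90 tested nuclear genes, Spearman's rho of the log2 fold change with exon length was -0.071, and with mean CPM 0.532. Over the 12705 tested protein-coding genes these values were -0.076 and 0.252. They describe relations across genes that share the same 6 libraries. Exons of another gene overlap 43 of the 108 genes, 14 of them over more than 10% of their exon bases. The largest such overlaps of genes called higher were those of Ndufb6 with Smim27, 39.0% of the Ndufb6 exon bases on the other strand with 8384 counts against 69583, and of Ndufa13 with Tssk6. Near-identical copies could take or give reads. Gene IDs of other biotypes that fit the symbol rule were 13, of which 12 are processed pseudogenes, and they held 38316 counts in all against 12734768 in the 108 genes.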
